A study of Mus musculus with 11 samples.

Results

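The ribosomal protein genes are the protein-coding genes whose symbol starts with Rpl or Rps and a digit, together with Rplp0, Rplp1, Rplp2 and Rpsa, without the Rps6k kinases, hyphenated symbols and pseudogenes. By this rule 89 genes were members among 21887 protein-coding genes on the 21 standard chromosomes of the RefSeq annotation of GRCm38.p6, the assembly behind mm10. They comprised 54 genes with Rpl symbols, named for the large ribosomal subunit, and 35 with Rps symbols, named for the small subunit. Genes are grouped by subunit below by symbol alone. Of these, 12 are relatives that the name rule brings in: Rpl3l, Rpl7l1, Rpl10l, Rpl22l1, Rpl32l, Rpl36al, Rpl37rt, Rpl39l, Rps23rg1, Rps27l, Rps27rt and Rps19bp1, the last of which encodes a protein that binds Rps19 and is not part of the ribosome. Myc-tagged retinoic acid receptor alpha (RARα), a nuclear receptor activated by retinoic acid, was profiled by CUT&RUN, in which an antibody guides a nuclease that releases the DNA around its target. The cells were Prom1-positive neural progenitors, collected with magnetic beads from the cortex of E14 mouse embryos, from controls and from mutants of Foxc1, a transcription factor needed for the meninges. The peak lists of 6 anti-Myc libraries were analysed, 3 control and 3 Foxc1 mutant, numbered here by their replicate labels, and all are of the tagged receptor per the series' design text. The 5 isotype libraries of the series were not analysed here, so no antibody background stands beside the values. The sources used here do not state the Foxc1 alleles, the promoter that drives the tagged receptor or the number of embryos per library. The p-values then measure only the spread between these libraries, which may be technical.

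Ribosomal proteins are made in matched amounts in every cell, bind ribosomal RNA in the nucleolus and form the large and small subunits that translate messenger RNA. Their genes are short and very active, most have a promoter in a CpG island, and their transcripts begin with a run of pyrimidines, the terminal oligopyrimidine tract, through which growth signals set their translation. Dividing neural progenitors make many ribosomes, and the genes are not among the classical targets of retinoic acid. A peak shows where tagged receptor or background signal was recovered and does not measure RNA, so the identity of the cells could not be checked with marker genes here.

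The 6 lists held 11869 to 513290 peaks, and the height of a peak is given in steps, the smallest unit of max signal in its library, which ranged from 0.0500 to 1.63 on the authors' scale. A step stands for a different amount of signal in each library, so heights in steps do not rank peaks between libraries. The median peak was 10 steps high in the full list of control library 1 and 4 in that of mutant library 3. As the lists differed in length, 2 versions of each were used. Equal-length lists were made of the top 11869 peaks by total signal, and full lists of every peak. Peaks of the equal-length lists still differed in width, with medians of 304 to 3696 bp, and were widest in control library 1 and mutant library 3. A wider peak touches a window more readily, for members and for all genes. A gene was called when a peak touched a window of 5 kb, or of 1 kb, around either gene end. Members had a median length of 3183 bp, against 17169 bp for all genes, and 82 of 89 lay in the 3 shortest of 10 length classes, so every share stands beside the share of all genes weighted to the members' length classes. The members also lay in gene-dense places: 65 of 89 had an end of another protein-coding gene within 5 kb, 73.0% against 46.5% in their length classes, so a peak in the wide window can belong to a neighbour.

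In the equal-length lists ribosomal protein genes carried peaks mainly in 1 control and 1 mutant library. Within 5 kb, 19 members were called in control library 1 (21.3%; all genes 14%, length classes 12.6%), 3 in control library 2 (3.37%; all genes 6.65%, length classes 4.89%) and 3 in control library 3 (3.37%; all genes 6.42%, length classes 5.01%). In mutant libraries 1, 2 and 3 the counts were 5 (5.62%; all genes 8.13%, length classes 5.73%), 3 (3.37%; all genes 7.34%, length classes 5.13%) and 17 (19.1%; all genes 10.4%, length classes 6.82%). Control library 1 and mutant library 3 therefore stood above the share of genes of like length and the other 4 libraries below it. Against genes of the same length class that also had, or lacked, a neighbour within 5 kb, the share was 13.7% in control library 1 and 7.78% in mutant library 3, still below that of the members.

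Within 1 kb the order of the libraries was nearly the same. Control library 1 had 12 members called (13.5%; all genes 7.87%, length classes 7.83%), control library 2 had 0 (all genes 1.43%, length classes 1.37%) and control library 3 had 1 (1.12%; all genes 1.35%, length classes 1.50%). Mutant libraries 1 and 2 had 3 members each (3.37%; all genes 2.39% and 2.61%, length classes 2.15% and 2.35%), and mutant library 3 had 16 (17.98%; all genes 6.09%, length classes 4.58%). Of the members called within 5 kb, 16 of 17 in mutant library 3 were thus also called within 1 kb, and 12 of 19 in control library 1.

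**Figure D1:**
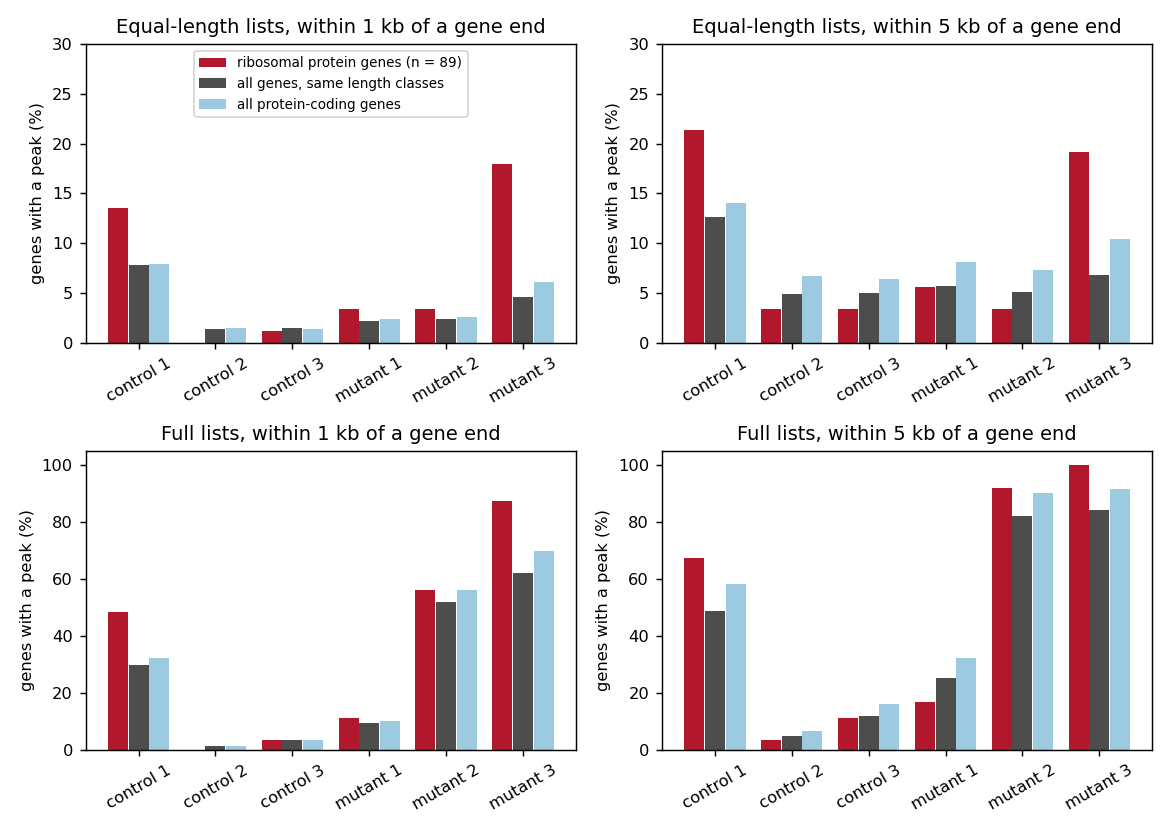
Percent of genes with a peak within 1 kb (left) or 5 kb (right) of a gene end in each of the 6 libraries, for equal-length lists (top) and full lists (bottom); bars give the 89 ribosomal protein genes, all genes weighted to the same length classes, and all 21887 protein-coding genes, with no error bar since each bar is 1 library. In the equal-length lists the members stand highest above the other bars in control library 1 (21.3% within 5 kb) and mutant library 3 (19.1%).

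The difference between the genotypes was smaller than the spread among libraries in each comparison. Control libraries averaged 9.36% ± 10.4 and mutant libraries 9.36% ± 8.51 within 5 kb (SD, n = 3 each), so the difference was 0 (two-sided exact permutation p = 1). Within 1 kb the averages were 4.87% ± 7.48 and 8.24% ± 8.43 (SD, n = 3 each), and mutant libraries were higher by 3.37 percentage points (exact permutation p = 0.5). As the members' share less that of their length classes, the 5 kb values were 1.84 ± 5.94 and 3.47 ± 7.67 percentage points (SD, n = 3), a difference of 1.62 (exact permutation p = 0.7). The adjusted p was 1 for each of the 4 comparisons made, peak height below included, and with 3 libraries against 3 the smallest p possible is 0.1. The direction of the 1 kb and length-class differences rested on single libraries: without mutant library 3 they were −1.50 and −2.78, and the second was −0.059 without control library 2 and −0.12 without control library 3. The size rested on them too. The 1 kb difference became 7.68, 0.936 or 1.50 when control library 1, 2 or 3 was left out, and 5.81 when mutant library 1 or 2 was. The length-class difference was 5.05 without control library 1 and 3.41 and 4.24 without mutant libraries 1 and 2. The 5 kb difference was 5.99 without control library 1 and fell to −4.87 without mutant library 3.

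In the full lists presence followed the length of the list. Within 5 kb, 60 members were called in control library 1 (67.4%; all genes 58.4%), 3 in control library 2 (3.37%; all genes 6.65%) and 10 in control library 3 (11.2%; all genes 16.1%). Mutant library 1 had 15 (16.9%; all genes 32.3%), mutant library 2 had 82 (92.1%; all genes 90.2%) and mutant library 3 had all 89 (100%; all genes 91.6%). Genes of the same length classes were called at 48.7%, 4.89% and 12.005% in the control lists in this order, at 25.4% in mutant library 1, and at 82.2% and 84.4% in mutant libraries 2 and 3. Within 1 kb control libraries 1, 2 and 3 had 43 (all genes 32.2%), 0 (all genes 1.43%) and 3 (all genes 3.64%) members called. The mutant libraries had 10 (all genes 10.3%), 50 (all genes 56.4%) and 78 (all genes 70%). As 48.3%, 0%, 3.37%, 11.2%, 56.2% and 87.6% of the members, these stood beside 29.7%, 1.37%, 3.38%, 9.59%, 52.0% and 62.2% in their length classes. The excess over genes of like length was again widest in mutant library 3 and control library 1, while in mutant library 1 the members were below it in the wide window.

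The place of the peaks differed between these 2 libraries. Gene starts were known for 69 of the 89 members, and the promoter is taken here as the RefSeq stretch of 300 bases, from 250 before the start to 50 after it. In the equal-length lists a peak touched the promoter of 11 members in mutant library 3 (15.9%; all genes 3.79%, length classes 3.09%) and of 3 in control library 1 (4.35%; all genes 3.85%, length classes 3.63%). It was 0 members in the other libraries, where all genes stood at 0.206% (control library 2), 0.12% (control library 3), 0.44% (mutant library 1) and 0.635% (mutant library 2). In the full lists it was 42 members in mutant library 3 (60.9%; all genes 33%, length classes 28.1%) and 16 in control library 1 (23.2%; all genes 14.2%, length classes 13.5%). It was 9 in mutant library 2 (13.0%; all genes 14.4%, length classes 14.6%), and 0 in control libraries 2 and 3 and mutant library 1 (all genes 0.206%, 0.292% and 2.04%). Mutant library 2, with 410562 peaks, was thus at the level of other genes at these promoters, although its list was nearly as long as that of mutant library 3. The other gene end was touched too. In the equal-length lists a peak lay within 1 kb of it for 6 members in mutant library 3 (8.70%; all genes 1.58%, length classes 1.96%). In control library 1 it was 8 members (11.6%; all genes 3.97%, length classes 5.29%). Members are short, so 1 peak can reach both ends. In mutant library 3 the peaks of Rpl7a, Rpl15, Rpl22l1 and Rps23 touched both the promoter and this window. The peak of Rpl27 had its centre 493 bp after the start. These values therefore do not show an excess apart from the starts.

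The distance from the start also differed between them. Of the members called within 5 kb in the equal-length list of mutant library 3 and with a known start, 10 of 14 had the centre of max signal within 1 kb of the start, against 36.6% of all genes called there and 35.0% of those in the 3 shortest classes. In control library 1 it was 0 of 13, against 14.1% of all genes called and 14.6% of short ones. The other equal-length lists had 0 of 3 and 0 of 2 such members in control libraries 2 and 3 (all genes called 7.5% and 6.65%), and 2 of 4 and 0 of 1 in mutant libraries 1 and 2 (all genes called 9.36% and 9.47%). The share of members under a peak was highest 600 bp after the start in mutant library 3 (20.3%), and averaged 14.4% within 500 bp of the start and 0.242% beyond 3 kb, where the length classes gave 2.61% and 0.646%. In control library 1 it averaged 4.22% within 500 bp and 6.69% beyond 3 kb (length classes 3.43% and 3.24%). The nearest protein-coding gene end to the centre of max signal was the member's own in 15 of the 17 called members of mutant library 3, but in 9 of 19 in control library 1, where the peaks were also wider (median 3507 bp against 1999 bp). Over all peaks of the 2 equal-length lists the medians were 3696 bp and 1860 bp, so this width was that of the libraries and not particular to members.

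**Figure D2:**
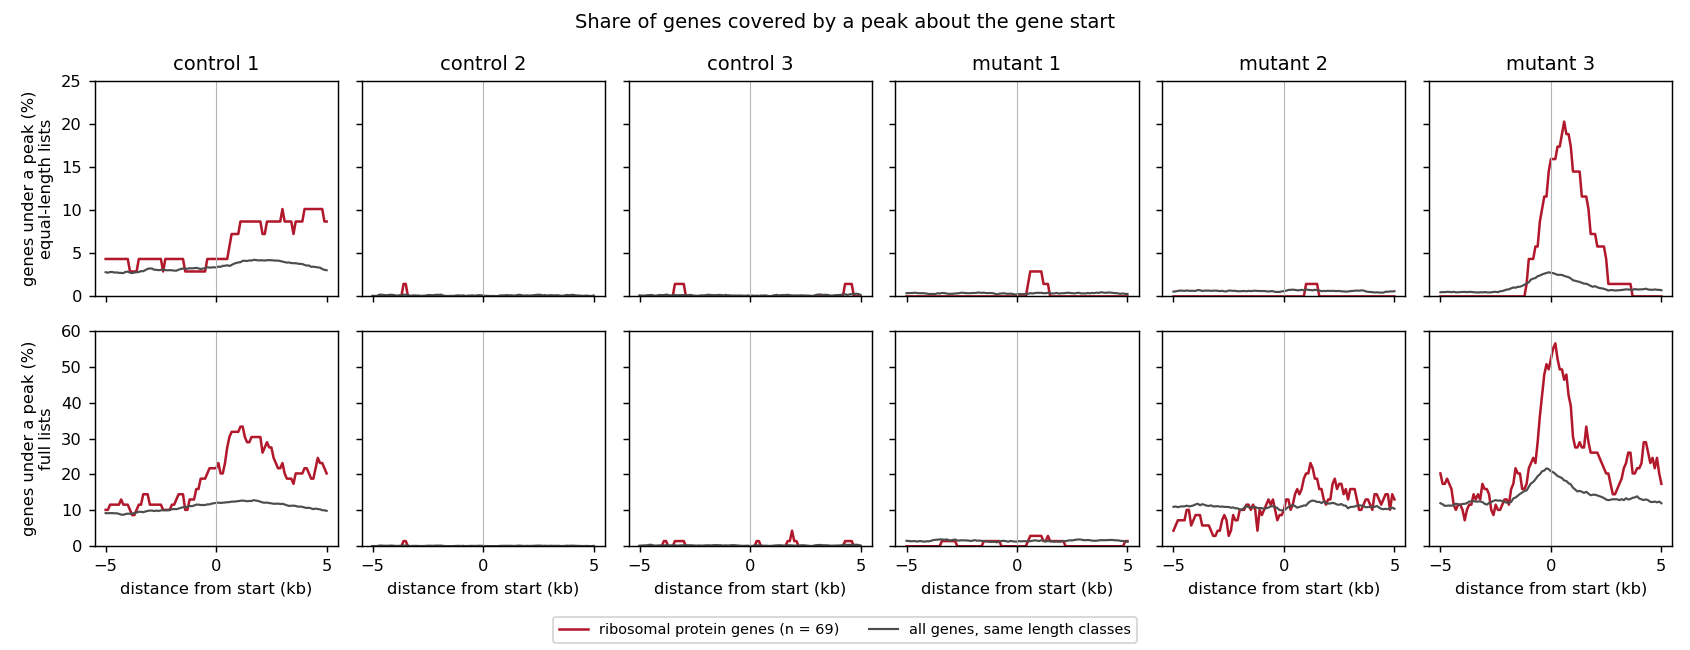
Percent of genes covered by a peak at each distance from the gene start, in steps of 100 bp from 5 kb before to 5 kb after it, for the 69 ribosomal protein genes with a known start and for all genes weighted to the same length classes; columns are libraries, the upper row uses equal-length lists and the lower row full lists. Mutant library 3 rises to 20.3% (upper) and 56.5% (lower) just after the start, while control library 1 reaches 33.3% in the full list at 1100 bp after it and has no summit at the start in the equal-length list.

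The 11 members whose promoter was touched in the equal-length list of mutant library 3 were Rpl4, Rpl5, Rpl7a, Rpl9, Rpl15, Rpl22l1, Rps3a1, Rps9, Rps12, Rps15a and Rps23. Of these, 7 are shown, for the highest peaks (Rps12 at 17 steps, Rps3a1 at 9, Rps9 and Rpl22l1 at 8), for the pyrimidine tracts of Rpl4 and Rpl15, and for Rpl9, which together with Rpl22l1 and Rpl35 also had its promoter touched in control library 1. Each line runs 5′ to 3′ on the strand of the gene from 120 bases before the RefSeq start to 20 after it (build GRCm38.p6). The stretches are chr10:23787190-23787329 (Rps12, minus strand), chr3:86142649-86142788 (Rps3a1, minus), chr7:3703921-3704060 (Rps9, plus), chr3:28805388-28805527 (Rpl22l1, plus), chr9:64173267-64173406 (Rpl4, plus), chr14:18270967-18271106 (Rpl15, minus) and chr5:65391412-65391551 (Rpl9, minus). Capitals mark matches to the motifs searched, which are CTTTTC and CTTTCC within 20 bases of the start, TATAA within 50 bases before it, and, on both strands, GGGCGG (Sp1), CCGGAAG (ETS), AAGATGGCG (YY1) and AGGTCA and GGGTCA, hexamers bound by retinoic acid receptors. Matches that overlap, as CTTTCC and CTTTTC do in Rpl4, form a single run of capitals.
Rps12: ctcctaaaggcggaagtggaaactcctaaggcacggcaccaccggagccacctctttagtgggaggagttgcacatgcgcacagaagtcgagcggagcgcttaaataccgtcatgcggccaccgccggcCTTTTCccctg
Rps3a1: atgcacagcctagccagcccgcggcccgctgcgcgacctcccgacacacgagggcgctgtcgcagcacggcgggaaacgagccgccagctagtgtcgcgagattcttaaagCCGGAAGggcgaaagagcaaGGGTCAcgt
Rps9: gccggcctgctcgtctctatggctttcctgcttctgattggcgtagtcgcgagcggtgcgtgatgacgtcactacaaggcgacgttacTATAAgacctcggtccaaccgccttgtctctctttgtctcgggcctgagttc
Rpl22l1: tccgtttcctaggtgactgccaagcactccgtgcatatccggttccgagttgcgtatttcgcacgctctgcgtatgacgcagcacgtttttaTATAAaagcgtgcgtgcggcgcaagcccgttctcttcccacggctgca
Rpl4: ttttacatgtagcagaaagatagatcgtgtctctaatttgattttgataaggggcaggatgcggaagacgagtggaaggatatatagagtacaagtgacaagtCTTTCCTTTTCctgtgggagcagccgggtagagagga
Rpl15: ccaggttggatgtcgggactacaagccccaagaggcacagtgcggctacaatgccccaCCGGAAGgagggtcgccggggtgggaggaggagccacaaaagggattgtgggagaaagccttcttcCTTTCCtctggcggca
Rpl9: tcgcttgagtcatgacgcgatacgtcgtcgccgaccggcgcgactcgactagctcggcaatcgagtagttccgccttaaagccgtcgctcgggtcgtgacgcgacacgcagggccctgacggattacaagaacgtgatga

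The promoters of the members differed from others in features the name rule did not use, and in the hexamers bound by retinoic acid receptors they were close to the rest. A pyrimidine tract motif, CTTTTC or CTTTCC, lay within 20 bases of the start in 14 of 69 members (20.3%), against 2.92% of 17492 promoters in the table. CCGGAAG, the core bound by ETS factors, was in 25 of 69 (36.2%) against 11.9%, AAGATGGCG in 4 (5.80%) against 1.92%, GGGCGG in 40 (58.0%) against 46.3% and TATAA in 5 (7.25%) against 5.98%. AGGTCA was in 8 of 69 (11.6%) against 14.5%, and GGGTCA in 12 (17.4%) against 13.4%. Direct repeats of AGGTCA spaced by 5 or by 2 bases, the arrangement of known retinoic acid response elements, were in 0 of 69 promoters of members, and in 1 and 0 of all 17492. Among the 11 promoters touched in mutant library 3, AGGTCA was in 0 and GGGTCA in 2 (Rps3a1 among them), against 8 and 10 of the 58 that were not touched. These are counts of letters in a window of 300 bases and say nothing of sites elsewhere. The median GC content was 57.0% in members and 56.3% in all promoters, and the median number of CpG dinucleotides 21 and 13.

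Rps12, a small subunit protein, had the highest peak of any member in mutant library 3. It was 17 steps high and lay at chr10:23786556-23788317 over the start of the gene (chr10:23785183-23787383), where the 90th percentile of all called genes was 9 steps. In the other full lists Rps12 had 3 and 5 steps in mutant libraries 1 and 2 and no peak in any control library. The medians of all called genes were 4 and 5 steps in these 2 mutant lists. A peak above the median of its library was therefore seen in 1 library of 6. Rps3a1, also of the small subunit, had 9 steps in mutant library 3, 5 in mutant library 2 and 10 in control library 1, with no peak in the others. Rps15a and Rps23, of the same subunit, had 6 and 7 steps over their starts in the equal-length list of mutant library 3, and Rps15a was also the highest member in the full list of mutant library 2, at 10 steps. Rpl38 and Rpl35a, of the large subunit, had 14 and 12 steps in the full list of mutant library 3 and were not in its equal-length list, since that list ranks by total signal. They had 12 and 10 steps in control library 1 and 4 and 8 in mutant library 2.

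A single gene, Rpl17, a large subunit protein at the exit tunnel, was called in 3 equal-length lists, where 1.64% of all genes were called in 3 or more. It had 3 steps in control library 3, 5 in mutant library 1 and 7 in mutant library 3, and in the full lists 15 in control library 1 and 6 in mutant library 2. The 3 peaks did not overlap, and their centres lay 2920 to 8889 bp apart. Across the 6 lists there were 50 calls of 37 members, 25 members were called in exactly 1 library (28.1%; all genes 31%), 11 in exactly 2 (12.4%; all genes 8.43%) and 52 in none (58.4%; all genes 59%). By length class, 25.6%, 6.31% and 67.5% of genes had 1, 2 or no library. The pattern of a call throughout 1 genotype and nowhere in the other was held by 0 members, and by 0.178% (mutant) and 0.0503% (control) of all genes. Overlap of peaks between libraries, here and below, was examined for members only. It has no share of all genes beside it and is not shown to be particular to members.

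Control library 1 and mutant library 3 shared 7 members, which is 36.8% of the first and 41.2% of the second, where all genes shared 16.3% and 21.8%. A call in both libraries was found for 7.87% of members and 2.28% of all genes. The peaks overlapped in 5 of the 7, Rpl22l1, Rpl7a, Rpl8, Rpl9 and Rps9, by 685 to 2166 bp, with centres 1473 to 2669 bp apart, and did not in Rpl5 and Rpl15. Rpl7a, a large subunit protein, had the highest member peak of control library 1, 20 steps at chr2:26911409-26913859, but its centre was nearest to the neighbour Surf1, while the peak of mutant library 3 (6 steps, chr2:26910669-26912528) had its centre 503 bp after the Rpl7a start. Rpl22l1, a paralog of Rpl22, had 16 steps in control library 1 and 8 in mutant library 3 and no peak in the other full lists. A step is 0.0500 in control library 1 and 1.63 in mutant library 3 on the authors' scale, so steps do not rank these peaks. At Rpl9 the overlapping peaks had 11 and 6 steps, and a second peak of control library 1, of 13 steps and nearest to Lias, neither overlapped the mutant peak nor touched the promoter. Rpl8 had 14 and 6 steps, with both centres nearest to Zfp647, and Rps9 had 12 and 8. At Rpl15 the control peak (8 steps) was nearest to Nkiras1 and 4484 bp before the start, and the mutant peak (7 steps) touched the promoter. Rpl5, which with Rpl11 and 5S RNA restrains the p53 regulator Mdm2, had 12 steps near Dipk1a in control library 1 and 5 steps over its own promoter in mutant library 3. The calls were thus shared in name by 7 genes, and at the promoter itself by Rpl9 and Rpl22l1.

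Among the members chosen for their roles, Rps6, the target of the S6 kinases, had 15 steps in control library 1 (chr4:86852549-86856800, over the 3′ end of the gene) and 5 in mutant library 1, and in the full lists also 2 and 6 in mutant libraries 2 and 3. Rps18 was called in the same libraries, at 10 and 5 steps, with the centres nearest to Vps52 and Wdr46. Rpsa, a small subunit protein also known as a laminin receptor, had 8 steps in the equal-length list of mutant library 2 alone, 1381 bp after the start. In the full lists it had 12 in control library 1 and 6 in mutant library 3. The stalk proteins, which bring elongation factors to the ribosome, were not called in any equal-length list. In the full lists Rplp0 had 13, 7 and 8 steps in control library 1 and mutant libraries 2 and 3, Rplp2 had 12 and 2 in control libraries 1 and 3 and 3 and 6 in mutant libraries 2 and 3, and Rplp1 had 4 and 8 in mutant libraries 2 and 3. Rpl11 had 9, 4 and 7 steps in control library 1 and mutant libraries 2 and 3, and Rps19, the gene most often mutated in Diamond-Blackfan anaemia, 5 and 7 in mutant libraries 2 and 3. In the full lists most of these peaks lay in control library 1 and mutant libraries 2 and 3, the 3 longest lists, beside those of Rps6 and Rps18 in mutant library 1 and of Rplp2 in control library 3.

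In the libraries with few calls most member peaks were at or below the median height of all called genes, and those of Rps28, Rpl23a and Rpsa were above it. Rps28, of the small subunit, reached 8 steps in control library 2, at chr17:33818356-33818723, where the median of all called genes was 2 steps and the highest 8. Its centre lay 4476 bp from the gene and nearest to Kank3. Rpl3l, the muscle paralog of Rpl3, and Rps24 had 2 steps there, which is also the median of all called genes. In control library 3, Rpl17 and Rps19bp1 had 3 steps and Rpl23 had 2. In mutant library 1, Rpl17, Rps2, Rps6 and Rps18 had 5 steps and Rps19bp1 had 4, and in mutant library 2, Rpl23a and Rpsa had 8, where the median of all called genes was 6 and the 90th percentile 8. The member's own end was the gene end nearest to the centre for 3 of the 5 in mutant library 1 (Rpl17, Rps2 and Rps19bp1), and in mutant library 2 for Rpsa but not for Rpl23a.

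Members called in the fewest full lists were Rpl36a, of the X chromosome, and Rpl32l, with 1 library each (5 steps in mutant library 3). Another 27 were called in 2, and those with the lowest mean percentile of total signal among them were Rplp1, Rps4x, Rpl10, Rpl13, Rpl18, Rpl19, Rps27l and Rps27rt. Of these 8, Rpl10 had 2 steps in control library 3 and 4 in mutant library 3, and Rps27l had 9 in control library 1 and 6 in mutant library 3. The others had peaks of 4 to 8 steps in mutant libraries 2 and 3. In exactly 1 full list 2.25% of members were called (all genes 3.49%, length classes 7.19%). In exactly 2 it was 30.3% (all genes 20.7%, length classes 27.8%), close to genes of like length.

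**Figure D3:**
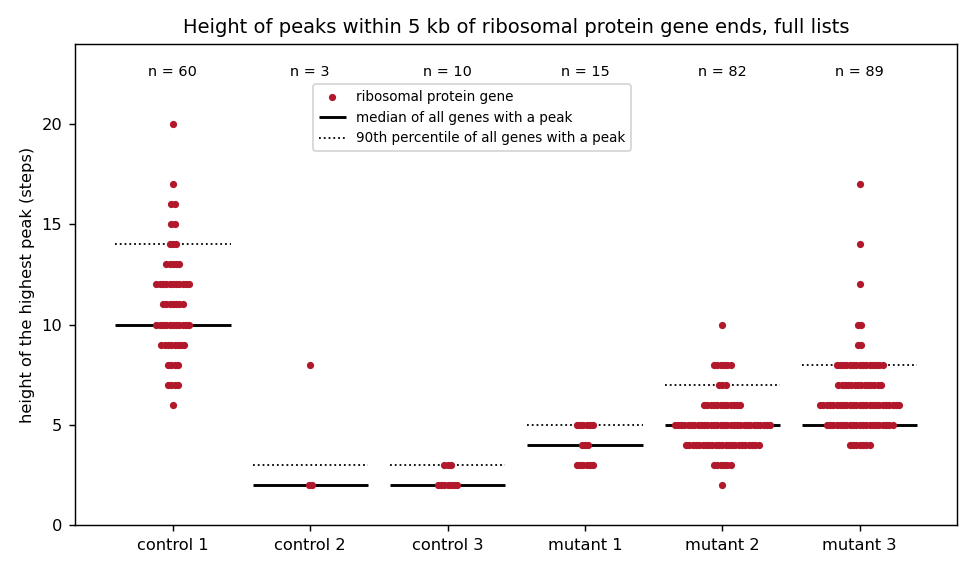
Height in steps of the highest peak within 5 kb of each called ribosomal protein gene (points) in the full list of each library, with the median (solid line) and 90th percentile (dotted line) of all called protein-coding genes; n is the number of members called. Members sit 1 step above the median of all genes in control library 1 (median 11 against 10) and mutant library 3 (6 against 5), and at that median in the other libraries.

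Where members had a peak within 5 kb, its median height was within 1 step of that of other genes. In the full lists the median height of called members was 11, 2 and 2 steps in the control and 4, 5 and 6 steps in the mutant libraries, in the order of their numbers, against 10, 2, 2, 4, 5 and 5 for all called genes. In mutant library 3, 61 of 89 members (68.5%) were above the median of all genes, against 49.5% of all genes, and in mutant library 2 it was 22 of 82 (26.8%) against 31.9%. Within 1 kb, 65.4% of called members were above the median in mutant library 3, against 36.0% of all called genes. The shares were 58.1% against 42.2% in control library 1 and 50% against 40.8% in mutant library 2, and this was not tested. The highest member reached 20, 8 and 3 steps in control and 5, 10 and 17 steps in mutant libraries, below the highest of all genes in 5 of the 6 (62, 8 and 8 steps in control and 64, 147 and 112 in mutant libraries 1, 2 and 3). The log2 height of members less that of all called genes, as medians, averaged 0.046 ± 0.079 for control and 0.088 ± 0.15 for mutant libraries (SD, n = 3 each), and the mutant mean was higher by 0.042 (exact permutation p = 1). This turned to −0.046 without mutant library 3 and to −0.10 with means in place of medians. It was 0.088 without control library 1, 0.019 without either other control library and 0.086 without mutant library 1 or 2.

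Both subunits had members called in control library 1 and mutant library 3, and differences between the subunits were not tested. In the equal-length lists 11 of 54 large and 8 of 35 small subunit genes were called in control library 1 (20.4% and 22.9%; length classes 12.7% and 12.6%) and 12 and 5 in mutant library 3 (22.2% and 14.3%; length classes 6.83% and 6.81%). In mutant library 1 it was 1 of 54 large (1.85%; length classes 5.67%) and 4 of 35 small subunit genes (11.4%; length classes 5.81%). Each other library had 1 or 2 of either (1.85% to 5.71%; length classes 4.88% to 5.32%). The small subunit genes are grouped by symbol, so those of mutant library 1 include Rps19bp1, which is not part of the ribosome. In control library 3 the only small subunit gene called was Rps19bp1. At promoters in the equal-length lists, 3 of 42 large and 0 of 27 small subunit genes were touched in control library 1 (length classes 3.60% and 3.68%), and 6 and 5 in mutant library 3 (14.3% and 18.5%; length classes 3.17% and 2.96%). At promoters in the full list of mutant library 3 it was 24 of 42 large (57.1%) and 18 of 27 small subunit genes (66.7%), with 28.1% in the length classes of each. Of the 12 relatives, which include Rpl3l, known from muscle, and Rpl10l, known from testis, 2 (16.7%; length classes 28.3%) had the promoter touched there, beside 40 of the other 57 members (70.2%; length classes 28.0%), and this difference was not tested.

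Genes of the mitochondrial ribosome and of translation were also called most in control library 1 and mutant library 3. Ribosome biogenesis genes were called most in control library 1 and mutant library 2 within 5 kb, where most libraries differed by few genes. In the equal-length lists within 5 kb, 16 of 78 genes of the mitochondrial ribosome were called in control library 1 (20.5%; length classes 13.8%) and 12 in mutant library 3 (15.4%; length classes 8.52%). Control libraries 2 and 3 had 2 (2.56%; length classes 6.14%) and 5 (6.41%; length classes 5.99%). Mutant libraries 1 and 2 had 3 (3.85%; length classes 7.22%) and 7 (8.97%; length classes 6.28%). Of 24 translation factors and other genes with a terminal oligopyrimidine tract, 9 were called in control library 1 (37.5%; length classes 14.3%) and 8 in mutant library 3 (33.3%; length classes 9.27%). Mutant library 2 had 5 (20.8%; length classes 6.75%) and mutant library 1 had 2 (8.33%; length classes 7.76%). Control libraries 2 and 3 had 0 (length classes 6.59% and 6.24%). Eif4a1, an RNA helicase of translation initiation, and Naca, a chaperone at the ribosome, each had 11 steps in control library 1 and 6 in mutant library 3, and Eef1g, an elongation factor subunit, had 8 in control library 1 and 5 in mutant library 1. Of 26 ribosome biogenesis genes, control libraries 1, 2 and 3 had 7 (26.9%; length classes 14.6%), 2 (7.69%; length classes 6.86%) and 4 (15.4%; length classes 6.45%) called. The mutant libraries had 3 (11.5%; length classes 8.08%), 5 (19.2%; length classes 7.20%) and 3 (11.5%; length classes 9.70%), so mutant library 3 was near its length classes here. Rrn3, a factor of RNA polymerase I, had 13, 2 and 6 steps in control libraries 1 and 3 and mutant library 2, and Ncl, the nucleolar protein nucleolin, 13, 2 and 7 in control libraries 1 and 2 and mutant library 2. Rrp1, also of this list, had 11, 3 and 7 steps in control libraries 1 and 3 and mutant library 3. At promoters in the equal-length list of mutant library 3, 7 of 69 mitochondrial (10.1%; length classes 3.63%), 5 of 16 translation (31.2%; length classes 3.91%) and 3 of 23 biogenesis genes (13.0%; length classes 4.01%) were touched. These stood beside 15.9% of the ribosomal protein genes and 3.79% of all genes, so a share above that of the length classes was found in each of the 4 lists. In the equal-length list of mutant library 2, the promoters of 1 of 69 mitochondrial, 0 of 16 translation and 0 of 23 biogenesis genes were touched (length classes 0.575%, 0.616% and 0.592%). At promoters the biogenesis genes were thus not called more in mutant library 2 than in mutant library 3.

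**Figure D4:**
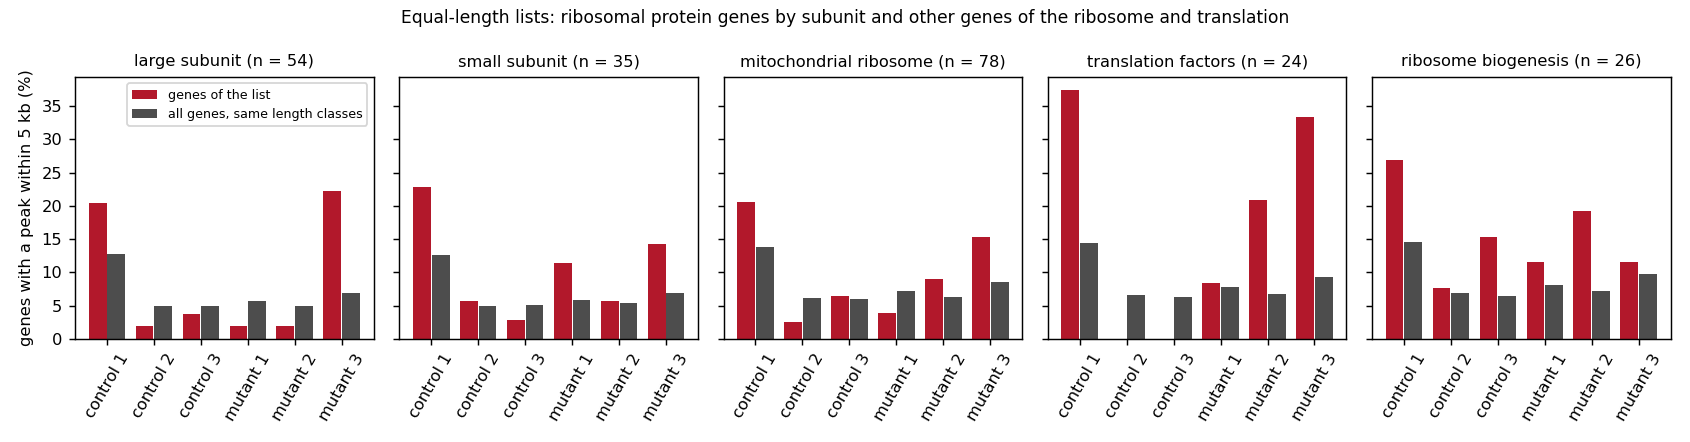
Percent of genes with a peak within 5 kb of a gene end in the equal-length list of each library, for ribosomal protein genes of the large and small subunit, the mitochondrial ribosome, translation factors and ribosome biogenesis, beside all genes weighted to the same length classes; each bar is 1 library, so there is no error bar. Control library 1 is the highest library in 4 of the 5 panels and mutant library 3 in the large subunit.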

How the data were processed

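Peaks were called per library, not on pooled replicates, as each library has its own deposited list. SEACR and mm10 come from the submitters' processing notes. Its release and settings, the alignment, any read filter, the use made of isotype libraries and the scaling were not stated in what was used here. The deposited signal of a peak, a total and a max, is in the authors' own units. Below 100 steps, every max signal came out as a multiple of its library's step (tolerance 0.01). Read depth is unknown, so a gene without a peak is not shown to be unbound. Libraries were grouped by their titles. Peaks on the 21 standard chromosomes were kept (0 or 1 peak per library left out), and overlap counted from 1 bp. Genes were matched by symbol to RefSeq, and promoters for 69 of 89 members; Rplp1, Rps14, Rpl17 and the other 17 have none in the table. A check against genes of like promoter GC is void, as 77.5% of members have a value and 80% are needed. The random genes of matched length in the rule were replaced by all genes weighted to the members' length classes. Group means were compared by exact permutation (two-sided, 20 splits), adjusted by Benjamini-Hochberg over 4. The labels do not say whether the same replicate numbers pair the libraries. Deviations of control and mutant libraries 1, 2 and 3 correlated at -0.082, -0.031 and -0.066, and those of unlike number at -0.067 to 0.079. All were near 0, so this measure cannot decide whether libraries were paired. Calls, shares and the test were checked on simulated data. Members, lists and named genes were chosen with earlier results of these data known. Named genes were the 12 members called in most libraries, the 3 of highest peak per library, the 10 called in fewest and 8 chosen by role; other members named, as those of single equal-length lists, were chosen after their values were seen. The values of a further member are not reported here. Software was Python 3.11.15, numpy 2.4.6, pandas 2.3.3 and matplotlib 3.10.9.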

Additional observations from a re-analysis of the deposited data

How the results depend on the processing

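Alternatives were run on 4 results, each a mutant minus control difference: the share of ribosomal protein genes within 5 kb and within 1 kb, the 5 kb share less that of the length classes, and relative height. No p in any of the 54 was below 0.2, and 3 libraries against 3 cannot pass 0.05 in any case, so none of this shows stability. The direction turned in 6: the 1 kb difference of 3.37 was −1.50 without mutant library 3 (range without single libraries −1.50 to 7.68), the length-class difference of 1.62 was −2.78 without mutant library 3, −0.059 without the second and −0.12 without the third control library (range −2.78 to 5.05), and the height difference of 0.042 was −0.046 without mutant library 3 (range −0.046 to 0.088) and −0.10 with means. Fewer libraries entered the 5 that left one out, and the cause of the turn with means was not tested. The 5 kb difference of 0 ranged from −4.87 to 5.99 without single libraries. Full lists gave 42.3 points within 5 kb, 34.5 within 1 kb and 0.201 against length classes, and the cause was not tested. Ranking by max signal gave 7.12, 8.61 and 7.35, and the top 5934 peaks 2.996, 4.49 and 3.72. Without control library 1 and mutant library 3 together, chosen after seeing the data, the values were 1.12, 2.81, 0.649 and 0. With gene starts alone the 5 kb difference was 0, and with genes matched on neighbours as well, also chosen after seeing the data, the length-class difference was 1.66. With the replicate block, although it is not known that the numbers pair the libraries, the differences were unchanged by construction, at 0, 3.37, 1.62 and 0.042 (exact sign-flip permutation p = 1, 0.75, 1 and 1, with 0.25 the smallest possible). Height within 1 kb had no value, as control library 2 had no member there, and the promoter GC alternative was not run, as too few members had a value.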

Other observations

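Pseudogenes with a ribosomal protein symbol carried no such excess within 1 kb in control library 1 and mutant library 3. They were taken by symbol, and processed copies of messenger RNA were not sorted from others. Of 318 pseudogenes with a ribosomal protein symbol, 2 (0.629%) had a peak within 1 kb of an end in the equal-length list of mutant library 3 and 10 (3.14%) in that of control library 1, where 1.47% and 4.20% of 10429 pseudogenes of any kind did. In the other libraries it was 5 (1.57%) and 8 (2.52%) in control libraries 2 and 3 and 5 (1.57%) in each of mutant libraries 1 and 2, against 1.74%, 2.01%, 1.73% and 2.07% of all pseudogenes. Within 5 kb it was 16 (5.03%) in mutant library 3 and 25 (7.86%) in control library 1, against 4.15% and 7.89% of all pseudogenes. The direction in mutant library 3 thus differed between the windows. Shares of pseudogenes were not weighted by length. The sources used here do not say how reads that match both a gene and its copies were treated, and the part of this in the values was not tested.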
